A study of Mus musculus with 12 samples.

Results

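The genes whose symbol begins with Nduf code for respiratory complex I, and 46 of the 24541 rows of a mouse read count table carried such a symbol. They were 36 nuclear-encoded subunits (16 of the peripheral arm, 19 of the membrane arm, and Ndufab1, which sits in both), the 8 assembly factors Ndufaf1 to Ndufaf8, and Ndufa4 and Ndufa4l2, which are kept apart from the subunits here. All 46 were positioned in the mouse annotation, on 17 chromosomes, and all 46 passed the filter on low counts in every fit. The counts came from polyadenylated RNA of interscapular brown and inguinal (posterior subcutaneous) white adipose tissue. The groups were brown adipose of wild type mice, of mice with 1 copy and of mice with 2 copies of Ucp1-CreEvdr, and white adipose of the same 3 genotypes, with 2 libraries in each group and 12 in all. Ucp1-CreEvdr is a large genomic transgene that expresses Cre recombinase from Ucp1 sequences and is meant for gene deletion in brown and beige fat cells; the labels name no floxed allele in any group. Every mouse was 6 weeks old, ate chow at room temperature and was killed in the morning. The comparisons ask what the transgene by itself, in 1 or 2 copies, does to each fat depot. Whether the 2 libraries of a group are separate mice is not said, so a p-value here measures the spread between libraries, which may be technical.

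Complex I is the NADH:ubiquinone oxidoreductase of the inner mitochondrial membrane. Its peripheral arm, in the matrix, takes electrons from NADH through a flavin and a chain of iron-sulphur clusters to ubiquinone, and its membrane arm pumps protons. Core subunits hold the cofactors and the proton channels, accessory subunits surround them, and assembly factors build the complex without staying in it. Brown adipocytes are packed with mitochondria, whose proton gradient UCP1 turns into heat, while white adipocytes hold far fewer. The core subunits of the membrane arm are encoded in mitochondrial DNA and were not analysed here.

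Total counts ran from 15679884 to 31814056 per library. Replicate libraries correlated at 0.986 to 0.994 on the log2 scale of CPM (read counts scaled by library size), and in each group the 2 libraries differed beyond counting noise. The tissue labels fitted their markers: Ucp1 stood between 5316 and 14596 CPM in brown and between 0.142 and 190.2 CPM in white libraries, and the positional gene Hoxc10 was at 0 counts in all 6 brown libraries. The summed level of 19 skeletal muscle markers was 4090.2 and 1644 CPM in the wild type brown libraries, against at most 36.7 CPM in the transgenic ones, and 1 white library with 1 copy reached 2499 CPM where the other white libraries had 21.5 to 187. The 10 lymphocyte markers summed to 1517 to 1742 CPM in the 4 transgenic white libraries, against 7.94 and 11.5 CPM in the wild type ones. The 5 general adipocyte markers summed to 12516 and 11593 CPM in wild type white libraries, 6758 and 5687 with 1 copy and 3513 and 2575 with 2 copies.

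The 36 subunits together had 18332 and 19387 CPM in wild type brown libraries, 18836 and 18371 with 1 copy and 15779 and 16777 with 2 copies. In white libraries they had 4015 and 4409 CPM in wild type, 2813 and 2466 with 1 copy and 2082 and 1875 with 2 copies. Brown stood above white in every genotype, white libraries stepped down with each copy without overlap, and brown libraries with 2 copies lay below the other 4. The subunits took 1.31% to 1.61% of all counts in brown libraries and 0.246% to 0.490% in white ones. The 8 assembly factors summed to 319 to 381 CPM over the brown libraries with the genotypes overlapping. In white adipose they had 124 and 137 CPM in wild type, 103 and 102 with 1 copy and 88.6 and 91.0 with 2 copies, again in order and without overlap.

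**Figure D1:**
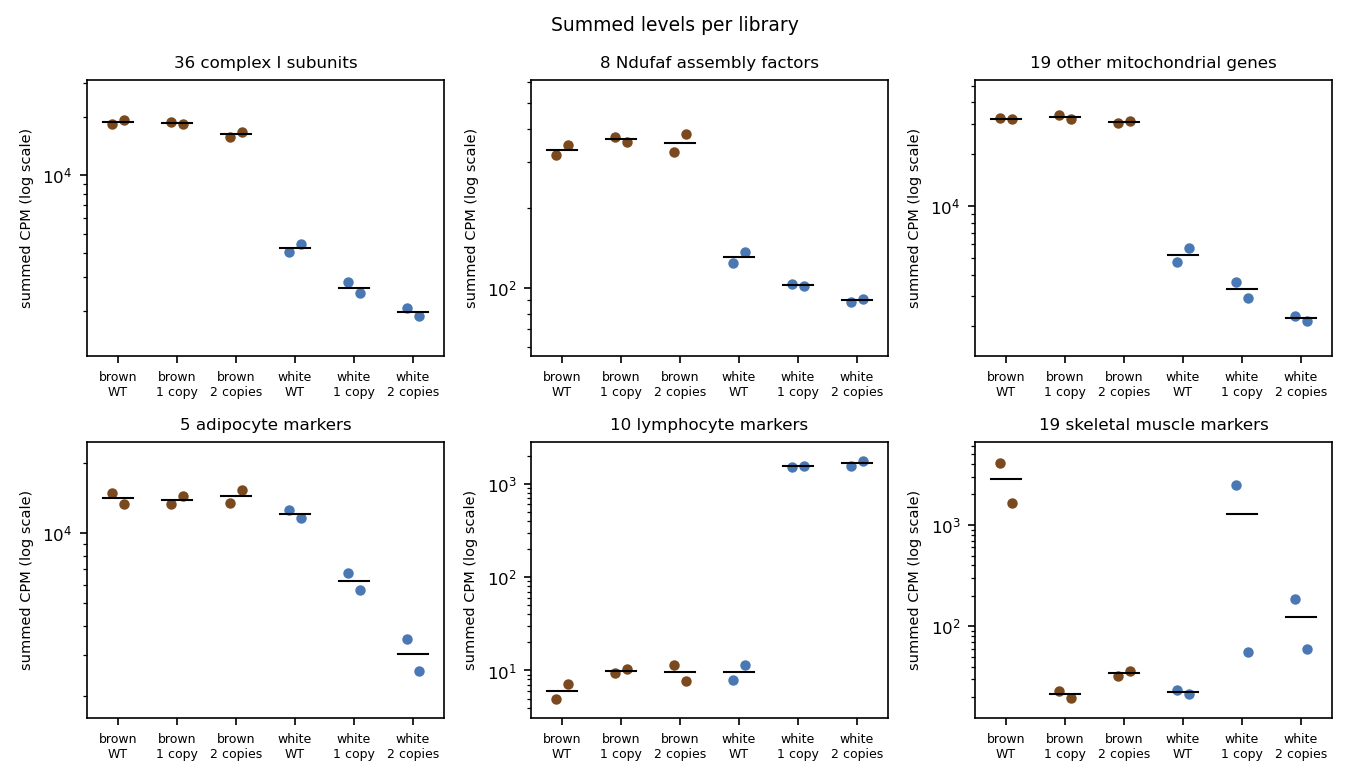
Summed CPM per library (log scale) of the complex I subunits, the assembly factors, other mitochondrial genes and markers of 3 cell types, by tissue and genotype; points are libraries, 2 per group, and bars are means. The subunit sum is highest in brown adipose and in white adipose lower with 2 copies (2082 and 1875) than in wild type (4015 and 4409), while the lymphocyte sum is 1517 to 1742 in the 4 transgenic white libraries and at most 11.6 in the others.

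Per kilobase of the shortest principal transcript, subunit levels in wild type brown adipose ran from 104 CPM per kb for Ndufb4 to 1714 CPM per kb for Ndufb8, with a median of 494. Ndufb8 is a membrane arm subunit that is often used as a marker of assembled complex I. In wild type white adipose the range was 26.8 (Ndufb4) to 334 CPM per kb (Ndufb9), with a median of 120.1. Assembly factors were far below the subunits on this scale, at 15.9 (Ndufaf6) to 40.7 CPM per kb (Ndufaf1) in brown and 5.71 (Ndufaf6) to 17.8 CPM per kb (Ndufaf8) in white wild type adipose, so no assembly factor reached the lowest subunit in either depot. Ndufa4, now assigned to cytochrome c oxidase, was the highest of the 46 in both depots, at 2283 CPM per kb in brown and 526 in white. The level of Ndufb4 is uncertain, because a processed copy, Ndufb4c, is identical to it over 390 of 390 aligned bases and has no row of its own. Processed copies of Ndufab1, Ndufa11 and Ndufs6 are annotated too. Exons of 13 members, among them Ndufs3, Ndufa2 and Ndufaf3, lie opposite exons of another counted gene on the other strand, and the strand setting of the counting is not given in the sources used here.

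In wild type mice every complex I subunit was higher in brown than in white adipose. The median difference of the 36 subunits was 2.04 on the log2 scale, against -0.04 for all 15559 genes tested, and single subunits ran from 1.40 (Ndufa7) to 2.90 (Ndufv1). All 36 subunits and all 8 assembly factors passed edgeR's quasi-likelihood test with Benjamini-Hochberg adjustment, where 29% of all genes tested were called higher in brown. The assembly factors differed less, with a median of 1.41. The 7 core subunits had a median of 2.44 and a range of 2.15 to 2.90, against a median of 1.95 and a range of 1.40 to 2.55 for the 29 accessory subunits. Peripheral arm subunits had a median of 2.19 and membrane arm subunits one of 1.95. The wild type brown libraries are those with skeletal muscle RNA, a tissue that is itself rich in complex I, and its part in these differences was not tested.

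Ndufv1, which binds NADH and the flavin, showed the widest gap between depots, with 1515 and 1540.3 CPM in brown against 193 and 216 CPM in white wild type libraries and a log2 difference of 2.90 ± 0.15 (SE, adjusted p = 4.96e-07). Its partner Ndufv2, which carries an iron-sulphur cluster beside the flavin, had 686 and 794 CPM in brown against 149 and 184 CPM in white and differed by 2.15 ± 0.14 (SE, adjusted p = 1.18e-06). Ndufs1, the largest subunit and a carrier of several clusters, had 1066 and 1117 CPM in brown against 183 and 231 CPM in white and differed by 2.40 ± 0.14 (SE, adjusted p = 7.28e-07). These 3 genes form the NADH-oxidising tip of the peripheral arm, and in each the lowest brown library was above the highest white one, as in 37.4% of all genes tested. Ndufs7 helps to shape the pocket where ubiquinone is reduced. Ndufs7, the holder of the last cluster in the chain, had 533 and 535 CPM in brown against 93.2 and 102 CPM in white and differed by 2.45 ± 0.09 (SE, adjusted p = 3.43e-07). Ndufs8, another cluster-bearing core subunit, had 526 and 497 CPM in brown against 81.9 and 93.9 CPM in white and a difference of 2.54 ± 0.12 (SE, adjusted p = 3.51e-07). Ndufs3, a core subunit without a cofactor, had 506 and 589 CPM in brown against 96.6 and 107 CPM in white and a difference of 2.43 ± 0.12 (SE, adjusted p = 4.38e-07). The only accessory subunit among the 6 widest gaps was Ndufa10, a matrix-side subunit of the membrane arm related to nucleoside kinases, with 973 and 1101 CPM in brown against 160.1 and 194 CPM in white and a difference of 2.55 ± 0.15 (SE, adjusted p = 7.61e-07).

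The 6 subunits with the narrowest gaps were all accessory subunits, and all of them still passed. Ndufa7, of the peripheral arm, had 364 and 325 CPM in brown against 131 and 131 CPM in white and a log2 difference of 1.40 ± 0.11 (SE, adjusted p = 3.79e-06). Ndufa2, a small thioredoxin-like subunit of the peripheral arm, had 293 and 272 CPM in brown against 98.5 and 100.02 CPM in white and a difference of 1.51 ± 0.10 (SE, adjusted p = 1.45e-06). Ndufb3, a single-span subunit of the membrane arm, had 345 and 353 CPM in brown against 116 and 121 CPM in white and differed by 1.55 ± 0.11 (SE, adjusted p = 1.56e-06). In these 3 genes, too, no brown library came down to a white one. Ndufa13 is also known as GRIM-19 and sits in the membrane near the joint of the arms. It had 464 and 497 CPM in brown against 156 and 158 CPM in white and a difference of 1.62 ± 0.10 (SE, adjusted p = 8.95e-07). Ndufs4, whose loss causes a Leigh-like disease in mice, had 283 and 312 CPM in brown against 82.7 and 109 CPM in white and a difference of 1.63 ± 0.12 (SE, adjusted p = 2.94e-06). Ndufs5, a cysteine-paired subunit on the intermembrane space side, had 205 and 223 CPM in brown against 63.4 and 62.3 CPM in white and a difference of 1.77 ± 0.09 (SE, adjusted p = 5.31e-07).

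Assembly factors differed between depots by 0.64 (Ndufaf2) to 1.75 (Ndufaf5). Ndufaf1, part of the assembly complex that builds the membrane arm near the ND2 protein, had 55.9 and 62.3 CPM in brown against 18.8 and 23.3 CPM in white and differed by 1.49 ± 0.12 (SE, adjusted p = 3.44e-06). Ndufaf3 and Ndufaf4 bind each other and help build the ubiquinone-binding module. Ndufaf3 had 52.1 and 48.5 CPM in brown against 19.3 and 20.6 CPM in white and differed by 1.33 ± 0.12 (SE, adjusted p = 1.06e-05), and Ndufaf4 had 63.4 and 81.9 CPM in brown against 22.6 and 24.4 CPM in white and differed by 1.63 ± 0.16 (SE, adjusted p = 1.33e-05). Ndufaf5 and Ndufaf7 are methyltransferase-fold proteins that, in human cells, modify arginines of complex I subunits. Ndufaf5 had 33.6 and 34.7 CPM in brown against 9.69 and 10.6 CPM in white and differed by 1.75 ± 0.13 (SE, adjusted p = 2.36e-06), and Ndufaf7 had 54.8 and 47.4 CPM in brown against 23.5 and 24.5 CPM in white and differed by 1.09 ± 0.11 (SE, adjusted p = 1.38e-05). Ndufaf8, the partner of NDUFAF5 in human cells, had 28.9 and 30.1 CPM in brown against 13.8 and 14.0 CPM in white and differed by 1.09 ± 0.12 (SE, adjusted p = 2.70e-05). Ndufaf6, a factor for the early module around the ND1 protein, had 16.1 and 18.3 CPM in brown against 5.40 and 6.95 CPM in white and differed by 1.48 ± 0.19 (SE, adjusted p = 9.92e-05). Ndufaf2 holds the place of its paralog Ndufa12 until late in assembly. Its libraries read 14.1 and 22.9 CPM in brown against 11.2 and 12.7 CPM in white, and its difference of 0.64 ± 0.22 (SE, adjusted p = 0.029) was the 1 call of the 45 that was lost in fits that left out a library, which happened when brown wild type library 2 or either white wild type library was left out, with an adjusted p of up to 0.348. Ndufa12, by contrast, had 270.4 and 274 CPM in brown against 73.6 and 82.0 CPM in white and a difference of 1.81 ± 0.11 (SE, adjusted p = 9.13e-07).

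Ndufa4 and its paralog Ndufa4l2, a gene known for its induction by hypoxia, are given apart. Ndufa4 had 978 and 1086 CPM in brown against 222 and 254 CPM in white and a log2 difference of 2.12 ± 0.12 (SE, adjusted p = 7.28e-07). Ndufa4l2 had 11.97 and 12.4 CPM in brown against 7.98 and 10.4 CPM in white, with a difference of 0.40 ± 0.22 (SE, adjusted p = 0.128) that did not pass. Ndufa4l2 was the only member with no call between the wild type depots.

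**Figure D2:**
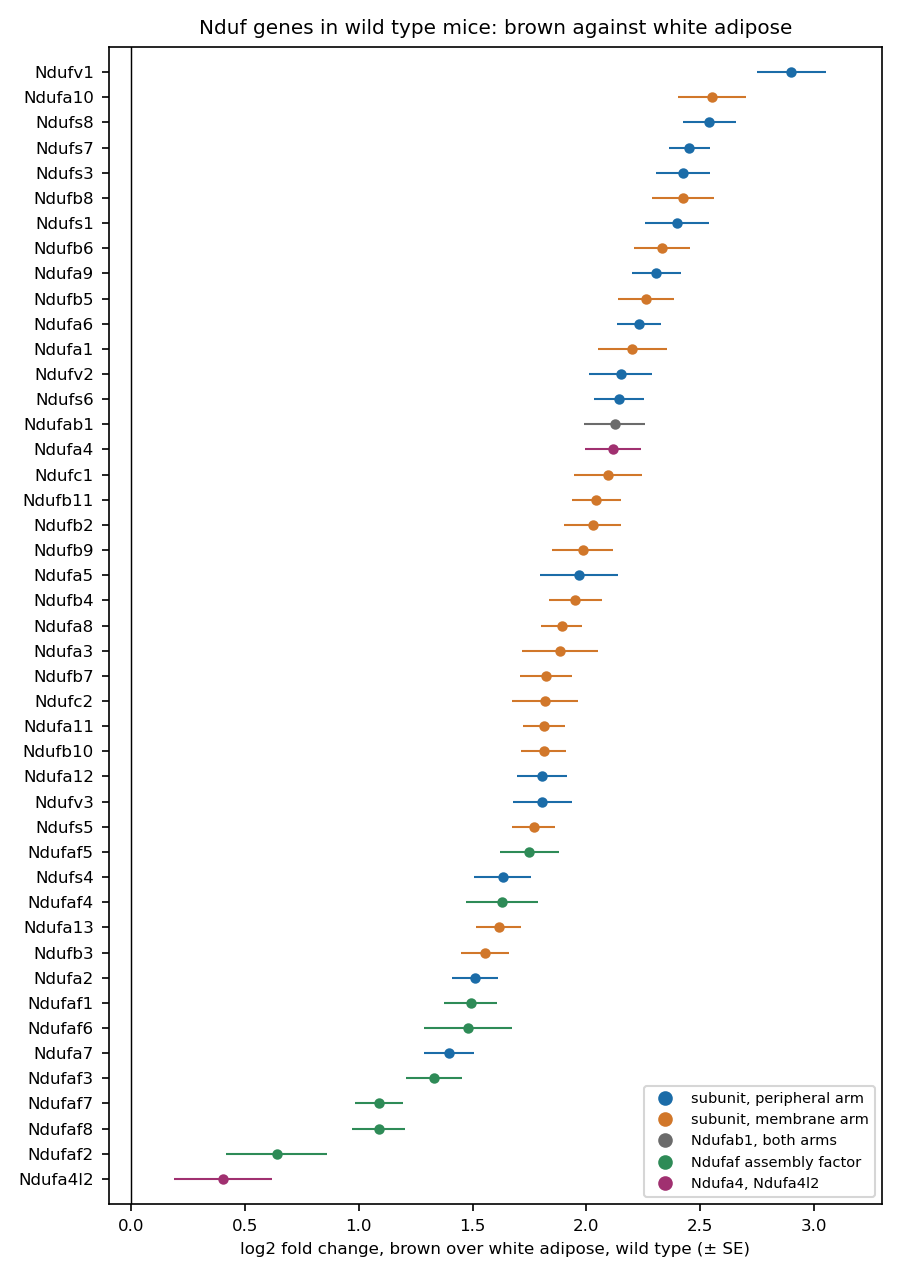
Log2 fold change of brown over white adipose in wild type mice (x axis, mean and SE from edgeR, 2 libraries per depot) for 45 of the 46 genes, coloured by class. The core subunits Ndufv1 (2.90) and Ndufs8 (2.54) lie near the top, and Ndufaf2 (0.64) and Ndufa4l2 (0.40) at the bottom. The classes overlap, with Ndufa7 (1.40), of the peripheral arm, below the assembly factor Ndufaf5 (1.75).

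In mice with 1 copy of the transgene, all 46 genes were higher in brown than in white adipose (background 29.4% of genes tested), with a median of 2.75 for the subunits and 1.85 for the assembly factors. In mice with 2 copies all 46 were again higher (background 32.1%), with a median of 2.91 for the subunits and 1.91 for the assembly factors. The median of all genes tested was -0.24 in both comparisons. Ndufv1 again had the widest gap, at 3.53 ± 0.16 (SE, adjusted p = 3.49e-08) with 1 copy and 4.05 ± 0.16 (SE, adjusted p = 1.20e-08) with 2 copies. Ndufa4l2 passed in both, at 0.99 ± 0.22 (SE, adjusted p = 0.00245) with 1 copy and 1.48 ± 0.22 (SE, adjusted p = 0.000148) with 2 copies. Its levels were 11.8 and 12.5 CPM in brown against 5.55 and 6.75 CPM in white with 1 copy, and 14.3 and 11.01 CPM in brown against 3.78 and 5.28 CPM in white with 2 copies.

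All members but Ndufa4l2 were called higher in brown adipose of wild type mice, and the subunits fell together in white adipose with the transgene. Their promoters were therefore read for the sites of factors known for mitochondrial genes. RefSeq promoters (GRCm38.p6, 250 bases before to 50 after the start) matched 40 of the 46 members. The core site of NRF1 (nuclear respiratory factor 1), spelled GCGCA and then GCGC with 1 base of any kind between them and searched on both strands, lay in 9 of the 40 (22.5%), against 5.19% of all 27025 genes with a promoter in the table and 9.97% of the 11943 that were also tested here. Members' promoters had a median GC content of 59.3%, close to the 60% of tested genes. The site is shown in capitals with its flanks, 5′ to 3′ on the gene's strand, for the 6 genes with a match before the start other than Ndufs5, which follows whole.
Ndufa8 (chr2:36049339-36049388, minus strand): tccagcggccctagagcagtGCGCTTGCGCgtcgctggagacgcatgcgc
Ndufa11 (chr17:56717682-56717731, plus strand): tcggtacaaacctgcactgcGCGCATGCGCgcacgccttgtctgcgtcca
Ndufa5 (chr6:24527687-24527736, minus strand): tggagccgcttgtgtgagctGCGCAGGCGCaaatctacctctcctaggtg
Ndufs6 (chr13:73328483-73328518, minus strand): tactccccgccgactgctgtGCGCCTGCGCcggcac
Ndufb4 (chr16:37654418-37654467, minus strand): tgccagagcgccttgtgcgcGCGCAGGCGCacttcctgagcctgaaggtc
Ndufaf4 (chr4:24897950-24897999, plus strand): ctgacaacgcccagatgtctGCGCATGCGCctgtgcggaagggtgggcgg
Ndufs5, the subunit with the smallest p between 2 copies and wild type in white adipose, is the one gene whose upstream bases held an NRF1 match and an ERR match without being in doubt from a near-identical copy. ERR sites (oestrogen-related receptors, nuclear receptors of mitochondrial genes) were spelled AAGGTCA. Its 250 bases before the start follow, with both matches in capitals, the ERR match first and on the opposite strand.
Ndufs5 (chr4:123718187-123718436, minus strand): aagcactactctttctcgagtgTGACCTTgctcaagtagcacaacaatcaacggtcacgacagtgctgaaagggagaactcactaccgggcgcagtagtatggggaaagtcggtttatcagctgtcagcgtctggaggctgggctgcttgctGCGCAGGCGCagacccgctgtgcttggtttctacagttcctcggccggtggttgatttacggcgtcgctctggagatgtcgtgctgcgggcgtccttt
AAGGTCA lay in 3 of the 40 members (7.5%; Ndufb2, Ndufb4 and Ndufs5), against 5.38% of all genes and 4.24% of tested genes. The longer form TCAAGGTCA was in 0 of 40, against 0.466% of all genes, and overlaps the shorter one. A YY1 core, AAGATGGC, lay in 8 of 40 (20%) against 3.19% and 4.66%, each time between 11 and 39 bases after the start, and a GABPA core, CCGGAAGT, in 1 of 40 (2.5%) against 4.31% and 7.9%. These are letter matches in a short window and show no binding. The 7 subunits with an NRF1 match had a median depot difference of 1.95 (1.77 to 2.23), and the 25 without one 2.10 (1.40 to 2.90). In white adipose with 2 copies the same 7 had a median of -0.95 and those without a match one of -1.13. The ranges overlapped in both comparisons.

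In white adipose, all 36 subunits fell in mice with 2 copies of the transgene relative to wild type. The median was -1.12 on the log2 scale, with single subunits from -1.57 (Ndufb9) to -0.59 (Ndufb7), while the median of all 15287 genes tested was 0.01. This comparison called many genes: 28.9% of those tested were lower and 32.1% higher by edgeR's quasi-likelihood test with Benjamini-Hochberg adjustment (4423 and 4904 genes; 3195 and 6184 when scaled by library totals alone). Of the assembly factors, Ndufaf1, Ndufaf2, Ndufaf3 and Ndufaf7 fell, and the median of the 8 was -0.62. Both arms and the core and accessory subunits had like medians, at -1.11 for the peripheral arm, -1.14 for the membrane arm, -1.12 for the core and -1.11 for the accessory subunits. The 5 adipocyte markers also fell, with a median of -2.06, and the 10 lymphocyte markers rose, with a median of 7.39. Of 7 brown adipocyte markers tested 4 fell, and the median of the 7 was -3.03. The list of 8 summed to 32.1 and 24.6 CPM with 2 copies, against 190.2 and 527 CPM in wild type; Ucp1 had 0.419 and 0.142 CPM with 2 copies against 14.9 and 190.2 CPM in wild type. Of the other lists, 3 of 3 white adipocyte markers and 3 of 4 macrophage markers were lower and 3 of 19 skeletal muscle markers higher. The part of these markers in the fall of the Nduf genes was not tested. In bulk tissue, fewer adipocytes, added RNA of other cells such as lymphocytes, and less complex I RNA per adipocyte cannot be told apart.

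Ndufb9 fell the most. It had 222 and 248 CPM in wild type, 139 and 116 CPM with 1 copy and 85.7 and 72.3 CPM with 2 copies, and its log2 fold change was -1.57 ± 0.14 (SE, adjusted p = 0.000234) for 2 copies and -0.88 ± 0.13 (SE, adjusted p = 0.0029) for 1 copy. Ndufb9 is a LYR-motif protein that binds the mitochondrial acyl carrier protein, and that carrier, Ndufab1, was next. Ndufab1 had 101 and 106 CPM in wild type, 62.3 and 53.9 CPM with 1 copy and 40.2 and 32.5 CPM with 2 copies. Ndufab1 changed by -1.51 ± 0.13 (SE, adjusted p = 0.000232) for 2 copies and -0.84 ± 0.13 (SE, adjusted p = 0.00297) for 1 copy. In both genes the 3 genotypes did not overlap and stood in the order of copies, as in 19.2% of the genes tested. Ndufc1, a small membrane arm subunit next to ND2, had 53.4 and 47.2 CPM in wild type, 29.6 and 23.4 CPM with 1 copy and 18.5 and 18.3 CPM with 2 copies. Ndufc1 changed by -1.45 ± 0.13 (SE, adjusted p = 0.000304) for 2 copies and -0.92 ± 0.13 (SE, adjusted p = 0.00245) for 1 copy. Ndufc2, which sits beside it, had 93.8 and 96.0 CPM in wild type, 60.5 and 56.4 CPM with 1 copy and 49.8 and 43.3 CPM with 2 copies. Ndufc2 changed by -1.03 ± 0.09 (SE, adjusted p = 0.000294) for 2 copies and -0.70 ± 0.09 (SE, adjusted p = 0.00193) for 1 copy. The genotypes were in order in both. Ndufb6 and Ndufb8 belong to the outer part of the membrane arm. Ndufb6 had 65.1 and 79.2 CPM in wild type, 41.4 and 38.6 CPM with 1 copy and 27.4 and 25.9 CPM with 2 copies. Ndufb6 changed by -1.43 ± 0.11 (SE, adjusted p = 0.000176) for 2 copies and -0.85 ± 0.11 (SE, adjusted p = 0.00177) for 1 copy. Ndufb8 had 201 and 233 CPM in wild type, 136 and 111 CPM with 1 copy and 87.7 and 76.9 CPM with 2 copies, with fold changes of -1.40 ± 0.14 (SE, adjusted p = 0.00036) for 2 copies and -0.81 ± 0.13 (SE, adjusted p = 0.00411) for 1 copy.

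Ndufs5 had the smallest p. It had 63.4 and 62.3 CPM in wild type, 35.4 and 31.4 CPM with 1 copy and 25.9 and 25.2 CPM with 2 copies. Ndufs5 changed on the log2 scale by -1.30 ± 0.09 (SE, adjusted p = 0.000104) for 2 copies and -0.91 ± 0.09 (SE, adjusted p = 0.000558) for 1 copy. Ndufa8, like Ndufs5 a cysteine-paired protein of the intermembrane space, had 102 and 105 CPM in wild type, 71.7 and 67.8 CPM with 1 copy and 56.0 and 51.6 CPM with 2 copies. Ndufa8 changed by -0.95 ± 0.08 (SE, adjusted p = 0.000226) for 2 copies and -0.57 ± 0.08 (SE, adjusted p = 0.00219) for 1 copy. In both genes the genotypes were in order without overlap. Ndufb3 had 116 and 121 CPM in wild type, 68.3 and 63.7 CPM with 1 copy and 54.6 and 49.2 CPM with 2 copies. Ndufb3 changed by -1.19 ± 0.09 (SE, adjusted p = 0.000139) for 2 copies and -0.85 ± 0.09 (SE, adjusted p = 0.000748) for 1 copy. Ndufb4, uncertain because of its near-identical copy, had 25.8 and 26.3 CPM in wild type, 14.9 and 14.6 CPM with 1 copy and 11.9 and 11.2 CPM with 2 copies. Ndufb4 changed by -1.17 ± 0.10 (SE, adjusted p = 0.000232) for 2 copies and -0.82 ± 0.10 (SE, adjusted p = 0.00132) for 1 copy. On the peripheral arm, Ndufa12 had 73.6 and 82.0 CPM in wild type, 47.2 and 42.6 CPM with 1 copy and 33.9 and 29.1 CPM with 2 copies. Ndufa12 changed by -1.30 ± 0.11 (SE, adjusted p = 0.000237) for 2 copies and -0.79 ± 0.11 (SE, adjusted p = 0.00222) for 1 copy. Ndufa2 fell less, with 98.5 and 100.02 CPM in wild type, 66.9 and 64.2 CPM with 1 copy and 58.3 and 54.6 CPM with 2 copies and fold changes of -0.81 ± 0.07 (SE, adjusted p = 0.000297) for 2 copies and -0.60 ± 0.07 (SE, adjusted p = 0.00148) for 1 copy. Ndufb7, the subunit that fell least with 2 copies, still passed at -0.59 ± 0.09 (SE, adjusted p = 0.00192).

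The core subunits of the NADH end fell to 88.0 and 75.4 CPM with 2 copies, against 193 and 216 CPM in wild type, for Ndufv1 (log2 fold change -1.32 ± 0.16 SE, adjusted p = 0.000713), and to 91.7 and 83.9 CPM with 2 copies, against 183 and 231 CPM in wild type, for Ndufs1 (log2 fold change -1.24 ± 0.15 SE, adjusted p = 0.000758). For Ndufv2 the values were 79.3 and 73.5 CPM with 2 copies against 149 and 184 CPM in wild type (log2 fold change -1.12 ± 0.13 SE, adjusted p = 0.000615). In all 3 genes both 2-copy libraries lay below both wild type libraries, as in 39.6% of all genes tested. Toward the ubiquinone end, Ndufs3 had 47.7 and 45.5 CPM with 2 copies against 96.6 and 107 CPM in wild type (log2 fold change -1.13 ± 0.11 SE, adjusted p = 0.000354). Ndufs7 had 51.3 and 54.0 CPM with 2 copies against 93.2 and 102 CPM in wild type (log2 fold change -0.89 ± 0.08 SE, adjusted p = 0.000336), and Ndufs8 had 49.1 and 45.9 CPM with 2 copies against 81.9 and 93.9 CPM in wild type (log2 fold change -0.89 ± 0.11 SE, adjusted p = 0.000851). Of the 7 core subunits Ndufv1 fell the most.

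In white adipose all 8 assembly factors had negative values against wild type, and 4 of the 8 passed. With 2 copies both libraries lay below both wild type libraries in all 8, as in 39.6% of all genes tested. Ndufaf3 had 19.3 and 20.6 CPM in wild type, 15.3 and 13.9 CPM with 1 copy and 11.9 and 10.7 CPM with 2 copies. Ndufaf3 changed on the log2 scale by -0.82 ± 0.12 (SE, adjusted p = 0.00161) for 2 copies and -0.45 ± 0.12 (SE, adjusted p = 0.0212) for 1 copy. Ndufaf7 had 23.5 and 24.5 CPM in wild type, 19.8 and 18.4 CPM with 1 copy and 12.9 and 14.4 CPM with 2 copies. Ndufaf7 changed by -0.81 ± 0.11 (SE, adjusted p = 0.00105) for 2 copies and -0.33 ± 0.10 (SE, adjusted p = 0.0394) for 1 copy. In both genes the genotypes were in order without overlap. Ndufaf2 had 11.2 and 12.7 CPM in wild type, 7.43 and 8.84 CPM with 1 copy and 7.26 and 6.87 CPM with 2 copies. Ndufaf2 changed by -0.76 ± 0.16 (SE, adjusted p = 0.00656) for 2 copies and -0.56 ± 0.16 (SE, adjusted p = 0.0253) for 1 copy. Ndufaf1 had 18.8 and 23.3 CPM in wild type, 14.9 and 15.5 CPM with 1 copy and 12.5 and 14.3 CPM with 2 copies. Ndufaf1 changed by -0.65 ± 0.14 (SE, adjusted p = 0.00821) for 2 copies and -0.47 ± 0.14 (SE, adjusted p = 0.0321) for 1 copy. All 4 passed with both 1 and 2 copies, and these last 2 were also in order, but the call of Ndufaf1 for 2 copies was lost without 2-copy library 1 (adjusted p = 0.0524). Ndufaf4, the partner of Ndufaf3, had 22.6 and 24.4 CPM in wild type, 21.5 and 21.8 CPM with 1 copy and 19.4 and 22.3 CPM with 2 copies and did not pass (log2 fold change -0.17 ± 0.11 SE, adjusted p = 0.202 for 2 copies). The values for 2 copies were -0.38 (adjusted p = 0.0565) for Ndufaf5, -0.60 (adjusted p = 0.0538) for Ndufaf6 and -0.25 (adjusted p = 0.148) for Ndufaf8, of which none passed. Ndufa4 fell with the subunits, with 222 and 254 CPM in wild type, 152 and 133 CPM with 1 copy and 105 and 97.5 CPM with 2 copies and fold changes of -1.23 ± 0.11 (SE, adjusted p = 0.000276) for 2 copies and -0.74 ± 0.11 (SE, adjusted p = 0.00275) for 1 copy. Ndufa4l2 had 7.98 and 10.4 CPM in wild type, 5.55 and 6.75 CPM with 1 copy and 3.78 and 5.28 CPM with 2 copies. It passed for 2 copies (log2 fold change -1.02 ± 0.24 SE, adjusted p = 0.011), though not without 2-copy library 1 (adjusted p = 0.0599), and did not pass for 1 copy (log2 fold change -0.58 ± 0.24 SE, adjusted p = 0.0811).

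**Figure D3:**
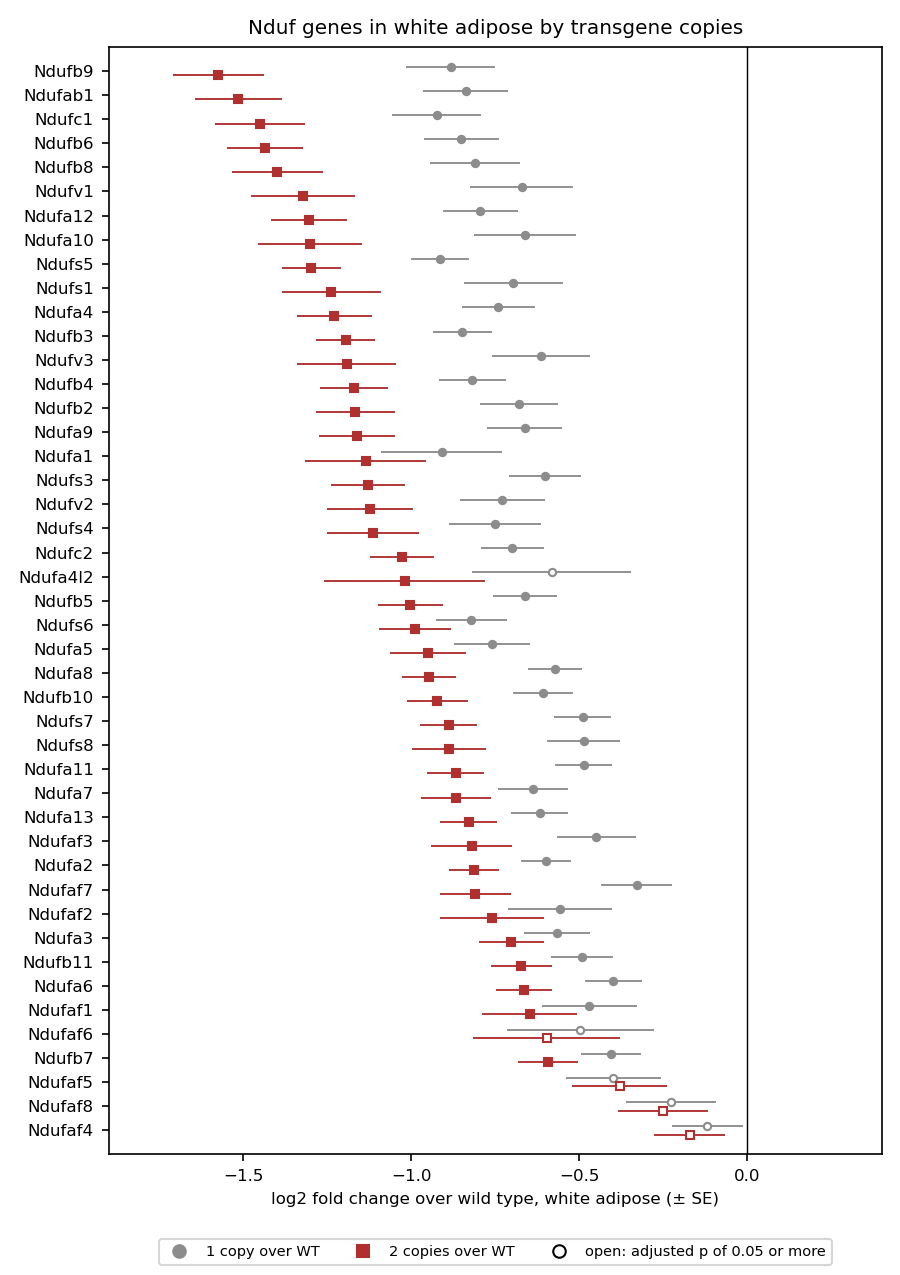
Log2 fold change over wild type in white adipose (x axis, with SE from edgeR) of 45 of the 46 genes for 1 copy (grey circles) and 2 copies (red squares) of the transgene; open symbols did not pass an adjusted p of 0.05. All subunits drawn are filled and left of 0 for both, from -1.57 for Ndufb9 to -0.59 for Ndufb7 with 2 copies, and the open symbols are 4 assembly factors and, for 1 copy, Ndufa4l2.

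With a single copy of the transgene, too, every subunit was lower than in wild type white adipose. All 36 fell, with a median of -0.67 and a range of -0.92 (Ndufc1) to -0.40 (Ndufa6), against a background of 23.6% of genes called lower (7951 genes were called in both directions, and 5147 without 1-copy library 2). The 4 assembly factors named above also passed, with a median of -0.42 over the 8. Besides the genes already given, Ndufb5, of the outer membrane arm, had 89.4 and 99.7 CPM in wild type, 63.6 and 55.9 CPM with 1 copy and 48.2 and 46.1 CPM with 2 copies, with a fold change of -0.66 ± 0.10 (SE, adjusted p = 0.00255) for 1 copy. Ndufs6, a zinc-binding subunit of the peripheral arm, had 62.0 and 65.0 CPM in wild type, 37.0 and 34.9 CPM with 1 copy and 34.8 and 29.1 CPM with 2 copies, with a fold change of -0.82 ± 0.11 (SE, adjusted p = 0.00173). Ndufa13 had 156 and 158 CPM in wild type, 105 and 99.6 CPM with 1 copy and 92.5 and 84.0 CPM with 2 copies, with a fold change of -0.62 ± 0.08 (SE, adjusted p = 0.00203). The genotypes did not overlap in any of these 3. Of the 36 subunit calls, 29 held when any 1 of the 6 libraries was left out; those of Ndufs1, Ndufa10, Ndufb7, Ndufa6, Ndufv3, Ndufs8 and Ndufv1 were lost in 1 or 2 of the 6 fits. Each was lost without 1-copy library 2, Ndufv3 and Ndufv1 also without wild type library 2, and Ndufb7 also without 1-copy library 1 (adjusted p up to 0.0807). The assembly factor calls were lost more widely: Ndufaf7 in all 6 fits (adjusted p up to 0.178), Ndufaf1 and Ndufaf3 without wild type library 2 or either 1-copy library (up to 0.128), and Ndufaf2 without wild type library 2 or 1-copy library 1 (up to 0.128). Without 1-copy library 1, the one with skeletal muscle RNA, the subunit median was -0.80. The 8 brown adipocyte markers summed to 260 CPM in that library and 65.3 CPM in 1-copy library 2, against 190.2 and 527 CPM in wild type. The part of either marker list in the subunit values was not tested.

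Between 2 copies and 1 copy in white adipose, no Nduf gene passed edgeR's test, where 1.86% of genes were called. The differences nevertheless lay on one side: all 36 subunits were negative, with a median of -0.38, and 29 of them had an unadjusted p under 0.05, against 13.5% of all genes with such a p and a lower value. The smallest adjusted p were those of Ndufab1 at -0.68 ± 0.13 (SE, adjusted p = 0.0625), Ndufb6 at -0.58 ± 0.11 (SE, adjusted p = 0.0648) and Ndufb9 at -0.69 ± 0.13 (SE, adjusted p = 0.0648). DESeq2's Wald test called 19 subunits and 1 assembly factor here, with 8.05% of all genes, and edgeR with all 12 libraries in 1 fit called 15 and 1, with 5.01% of all genes. The 285 genes called in all by the white adipose fit were 0 without any 1 of the 4 transgenic libraries and 657 or 652 without wild type library 1 or 2. In 35 of 36 subunits, and in 4 assembly factors, both 2-copy libraries lay below both 1-copy libraries and these below both wild type libraries, an order shown by 19.2% of the genes tested. The summed subunit level with 2 copies was 0.750 of that with 1 copy and 0.470 of that in wild type. The adipocyte marker sum stood at 0.489 and 0.253 of those levels.

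The other respiratory complexes moved with complex I in white adipose. With 2 copies, all 4 complex II genes (median -1.27), all 9 complex III genes (-1.27), all 10 complex IV genes (-1.13) and 9 of 10 ATP synthase genes (-0.84) fell. Those with the smallest adjusted p were Sdhc of complex II, which changed by -1.23 (adjusted p = 0.000282), Uqcr11 of complex III by -1.39 (adjusted p = 0.000339), Cox7a2 of complex IV by -1.18 (adjusted p = 0.000147) and Atp5j of the ATP synthase by -0.78 (adjusted p = 0.000314). The exception among them was Atp5g1, at -0.10 (adjusted p = 0.507). Of 19 mitochondrial genes outside the chain, 14 fell, led by Sod2 at -1.49 (adjusted p = 0.000165), and 1 rose (median -0.96). The gene that rose, named here after its value was seen, was Tfam, a factor for mitochondrial DNA, at 0.55 (adjusted p = 0.00132). Of 10 complex I assembly genes without an Nduf name, 7 fell. Nubpl, which delivers iron-sulphur clusters to the complex, changed by -1.09 (adjusted p = 0.0112), Tmem70 by -0.95 (adjusted p = 0.000299) and Foxred1 by -0.86 (adjusted p = 0.000739). Of the partners of Ndufaf1 in the membrane arm assembly complex, Ecsit changed by -0.83 (adjusted p = 0.000705), Tmem126b by -0.72 (adjusted p = 0.00501) and Acad9 by -0.54 (adjusted p = 0.00241). Timmdc1, another membrane arm factor, changed by -0.54 (adjusted p = 0.00398). Tmem186, Lyrm2 and Dmac1 (listed under its older symbol Tmem261) did not pass. Between the wild type depots, 9 of these 10 were higher in brown, Lyrm2 being the exception at 0.10 (adjusted p = 0.513), with Ecsit at 2.06 (adjusted p = 3.51e-07) and Foxred1 at 2.01 (adjusted p = 4.41e-07) the widest. In the same depot comparison the medians were 2.46 for complex II, 2.32 for complex III, 2.15 for complex IV and 2.00 for the other mitochondrial genes, near the 2.04 of the complex I subunits.

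In brown adipose 1 of the 46 genes, Ndufs7, passed between 2 copies and wild type, and none between 1 copy and wild type. With 2 copies, all 36 subunits had negative log2 fold changes over wild type, with a median of -0.23 and a range of -0.58 (Ndufa2) to -0.02 against 0.00 for all genes. Ndufs7 fell where 0.82% of the 13414 genes tested were called lower by edgeR's quasi-likelihood test with Benjamini-Hochberg adjustment. Without 1 library that count of genes, 173 in both directions, was 8 or 18 (2-copy libraries 1 and 2), 19 or 25 (1-copy libraries 1 and 2) and 321 (wild type library 1). In all, 17 subunits had an unadjusted p under 0.05, all of them lower, where 9.15% of all genes were. DESeq2 called 4 subunits, and 5.09% of all genes. In 24 of the 36 subunits both 2-copy libraries lay below both wild type libraries, as in 24.1% of all genes tested. The 8 assembly factors had a median of 0.01, and none passed; 3 of them had an unadjusted p under 0.05, against 18.3% of all genes in either direction, and DESeq2 called 1.

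Ndufs7 (chr10:80249121-80256794, plus strand, build mm10) had 533 and 535 CPM in wild type, 489 and 470.4 CPM with 1 copy and 366 and 373 CPM with 2 copies in brown adipose. The 3 genotypes did not overlap and stood in the order of copies, as in 2.62% of the genes tested, and its log2 fold change was -0.52 ± 0.09 (SE, adjusted p = 0.0404) for 2 copies over wild type, -0.36 ± 0.09 (SE, adjusted p = 0.0806) for 2 copies over 1 copy and -0.16 ± 0.09 (SE, adjusted p = 0.355) for 1 copy over wild type. The call rests on every library but 1: it was lost in 5 of 6 fits that left out a library, with adjusted p up to 0.137, and kept without wild type library 1. The wild type brown libraries held 4090.2 and 1644 CPM of muscle markers, more than any other brown library, and their part in the call was not tested. Ndufa2 had 293 and 272 CPM in wild type, 243 and 239 CPM with 1 copy and 171 and 206 CPM with 2 copies, in order without overlap, and did not pass (log2 fold change -0.58 ± 0.11 SE, adjusted p = 0.0619). Ndufa1, a small X-linked subunit of the membrane arm, had 348 and 343 CPM in wild type, 275 and 262 CPM with 1 copy and 249 and 271 CPM with 2 copies and did not pass for 2 copies (log2 fold change -0.40 ± 0.10 SE, adjusted p = 0.0895) or for 1 copy (log2 fold change -0.37 ± 0.10 SE, adjusted p = 0.0737).

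The paired assembly factors Ndufaf3 and Ndufaf4 pointed in opposite directions in brown adipose, though neither passed. Ndufaf3 had 52.1 and 48.5 CPM in wild type, 41.8 and 46.0 CPM with 1 copy and 30.4 and 37.5 CPM with 2 copies, with a fold change of -0.56 ± 0.13 (SE, adjusted p = 0.0842) for 2 copies, and its genotypes were in order. Ndufaf4 had 63.4 and 81.9 CPM in wild type, 100.2 and 86.5 CPM with 1 copy and 94.8 and 122 CPM with 2 copies, with a fold change of 0.58 ± 0.17 (SE, adjusted p = 0.145). Both of its 2-copy libraries lay above both wild type libraries, as in 3198 of the 13414 genes tested. The exons of Ndufaf3 lie opposite those of Impdh2, so its value carries that doubt. Among the other core subunits none passed. Ndufv1 had 1515 and 1540.3 CPM in wild type, 1532 and 1433 CPM with 1 copy and 1405 and 1304 CPM with 2 copies (log2 fold change -0.17 ± 0.10 SE, adjusted p = 0.401 for 2 copies). Ndufs1 had 1066 and 1117 CPM in wild type, 1158 and 1159.8 CPM with 1 copy and 1083 and 1055 CPM with 2 copies (log2 fold change -0.02 ± 0.09 SE, adjusted p = 0.924). Ndufs3 had 506 and 589 CPM in wild type, 524 and 529 CPM with 1 copy and 457 and 421 CPM with 2 copies (log2 fold change -0.31 ± 0.11 SE, adjusted p = 0.204), and Ndufv2 had 686 and 794 CPM in wild type, 815 and 807 CPM with 1 copy and 598 and 696 CPM with 2 copies (log2 fold change -0.19 ± 0.12 SE, adjusted p = 0.432). For Ndufs8 the levels were 526 and 497 CPM in wild type, 539 and 522 CPM with 1 copy and 404 and 453 CPM with 2 copies (log2 fold change -0.25 ± 0.10 SE, adjusted p = 0.238 for 2 copies over wild type and -0.29 ± 0.10 (SE, adjusted p = 0.144) over 1 copy).

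With 1 copy in brown adipose, no Nduf gene passed edgeR's test against wild type, where 4.07% of genes were called. That share stands for 546 genes, a count of 21 or 43 without 1-copy library 1 or 2 and of 830 without wild type library 2. Ndufa1 alone had an unadjusted p under 0.05, where 10.9% of all genes had one and were lower, and DESeq2 called 1 subunit and 7.78% of all genes. The subunit median was -0.02 (0.04 by library totals alone and 0.03 without wild type library 2, so its sign depends on these choices), with a range of -0.37 (Ndufa1) to 0.13. The next smallest p after Ndufa1 were those of Ndufa2 (log2 fold change -0.23 ± 0.11 SE, adjusted p = 0.286) and Ndufaf4 (log2 fold change 0.35 ± 0.17 SE, adjusted p = 0.293). Between 2 copies and 1 copy, where 1.95% of genes were called, no Nduf gene passed either. The 262 genes of that share became 74 or 22 without 2-copy library 1 or 2, 7 or 10 without 1-copy library 1 or 2, and 773 or 739 without wild type library 1 or 2. At an unadjusted p under 0.05, 12 subunits and 2 assembly factors were lower, against 10.6% of all genes. DESeq2 called 1 subunit, and 7.26% of all genes. The subunit median was -0.21. In 30 of the 36 subunits both 2-copy libraries lay below both 1-copy libraries, as in 29.5% of all genes tested. A set of 7 subunits, among them Ndufa9, Ndufb7, Ndufs7, Ndufb9, Ndufa11 and Ndufa2, and the assembly factor Ndufaf3 kept the order of wild type over 1 copy over 2 copies without overlap, which 2.62% of the genes tested did.

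**Figure D4:**
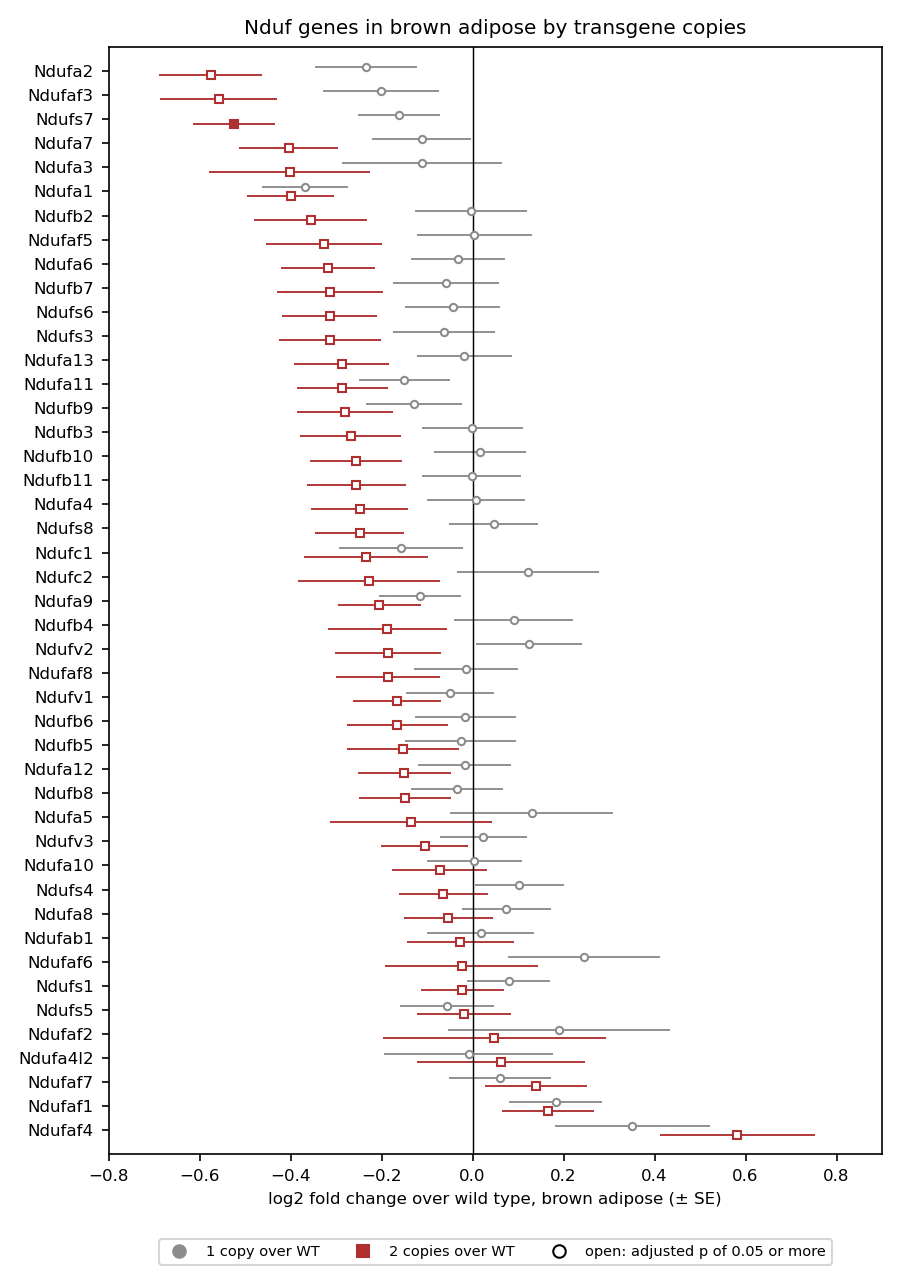
Log2 fold change over wild type in brown adipose (x axis, with SE from edgeR) of 45 of the 46 genes for 1 copy (grey circles) and 2 copies (red squares); open symbols did not pass an adjusted p of 0.05. Ndufs7 with 2 copies (-0.52) is the 1 filled symbol, the 2-copy values of the subunits lie left of 0, and Ndufaf4 (0.58) lies farthest to the right.

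For most complex I genes the difference between transgenic and wild type mice was not the same in the 2 depots. For 2 copies over wild type, the difference in brown minus that in white adipose was positive for all 36 subunits, with a median of 0.87, and 32 passed, where 20.6% of the genes tested were called higher. Of the assembly factors Ndufaf1, Ndufaf4 and Ndufaf7 passed, and Ndufa4 and Ndufa4l2 did too. The smallest adjusted p belonged to Ndufs5, at 1.27 ± 0.13 (SE, adjusted p = 6.96e-05), with 205 and 223 CPM in wild type, 207 and 207 CPM with 1 copy and 198 and 223 CPM with 2 copies in brown adipose. The largest difference was that of Ndufab1, at 1.48 ± 0.18 (SE, adjusted p = 0.000191), with 413 and 493 CPM in wild type, 479 and 442 CPM with 1 copy and 425 and 459.7 CPM with 2 copies in brown adipose. In both genes the brown genotypes overlapped, where the white ones were in order without overlap. Ndufb9 followed at 1.29 ± 0.19 (SE, adjusted p = 0.000426) and Ndufb6 at 1.26 ± 0.17 (SE, adjusted p = 0.00026). Ndufb8 differed by 1.24 ± 0.18 (SE, adjusted p = 0.000492), Ndufa10 by 1.22 ± 0.20 (SE, adjusted p = 0.000926) and the core subunit Ndufs1 by 1.21 ± 0.19 (SE, adjusted p = 0.000674). Ndufa12 (1.15), Ndufa9 (0.95), an NADPH-binding subunit near the ubiquinone site, Ndufb3 (0.92) and Ndufa8 (0.89) had smaller differences than these. Ndufaf7 was the assembly factor with the smallest p, at 0.94 ± 0.15 (SE, adjusted p = 0.000748). Of the 32 subunit calls, 27 held in each of 12 fits that left out a library; those of Ndufb11 and Ndufs7 were lost in 9 fits and that of Ndufa7 in 7 (adjusted p up to 0.152). Ndufa5 was lost without brown 2-copy library 2 or white 2-copy library 1 (up to 0.0657), and Ndufa1 without 2-copy library 2 of either depot (up to 0.0694). Ndufaf4 was lost without brown wild type library 1, brown 2-copy library 2, white wild type library 2 or white 2-copy library 1 (up to 0.0701), and Ndufa4l2 without brown 2-copy library 1, white wild type library 2 or white 2-copy library 1 (up to 0.0677).

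For 1 copy over wild type the same difference of differences had a median of 0.65 over the subunits, and 29 of 36 passed, against a background of 13.8%. Ndufs5 again had the smallest adjusted p, at 0.86 ± 0.13 (SE, adjusted p = 0.0011). Ndufb4 showed the largest value, at 0.92 ± 0.16 (SE, adjusted p = 0.00247), with the doubt from its near-identical copy. Ndufv2, the cluster-bearing core subunit, differed by 0.86 ± 0.19 (SE, adjusted p = 0.00714), Ndufs4 by 0.86 ± 0.17 (SE, adjusted p = 0.00474) and Ndufab1 by 0.86 ± 0.18 (SE, adjusted p = 0.00621). Ndufb3 (0.85), Ndufb6 (0.84), Ndufs6 (0.78), Ndufa12 (0.78), Ndufa8 (0.65) and Ndufb10 (0.63) also stood among the 12 smallest p, as did Ndufa4 (0.75). Ndufaf1 was the assembly factor that passed, at 0.66 ± 0.16 (SE, adjusted p = 0.0126). When 1 library was left out, 17 of the 29 subunit calls held in all 12 fits. The other 12, among them those of Ndufa10, Ndufs3, Ndufb5, Ndufc1, Ndufa5, Ndufa9, Ndufb11, Ndufv3, Ndufa7, Ndufs8 and Ndufv1, were each lost without white 1-copy library 2 and in 1 to 6 fits in all (adjusted p up to 0.116). Marker lists differed between the depots too. By the 2-copy interaction, 3369 of the 15559 genes tested were lower and 3199 higher. Lower were 12 of 19 skeletal muscle and 10 of 10 lymphocyte markers, and higher were 5 of 5 adipocyte and 6 of 8 brown adipocyte markers. By the 1-copy interaction, 2926 genes were lower and 2150 higher. Lower were 17 of 19 skeletal muscle and 10 of 10 lymphocyte markers. Higher were 5 of 5 adipocyte, 0 of 8 brown adipocyte and 2 of 4 macrophage markers. Their part in the Nduf differences was not tested. Both comparisons use the wild type libraries of each depot, which they share with the genotype comparisons above.

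**Figure D5:**
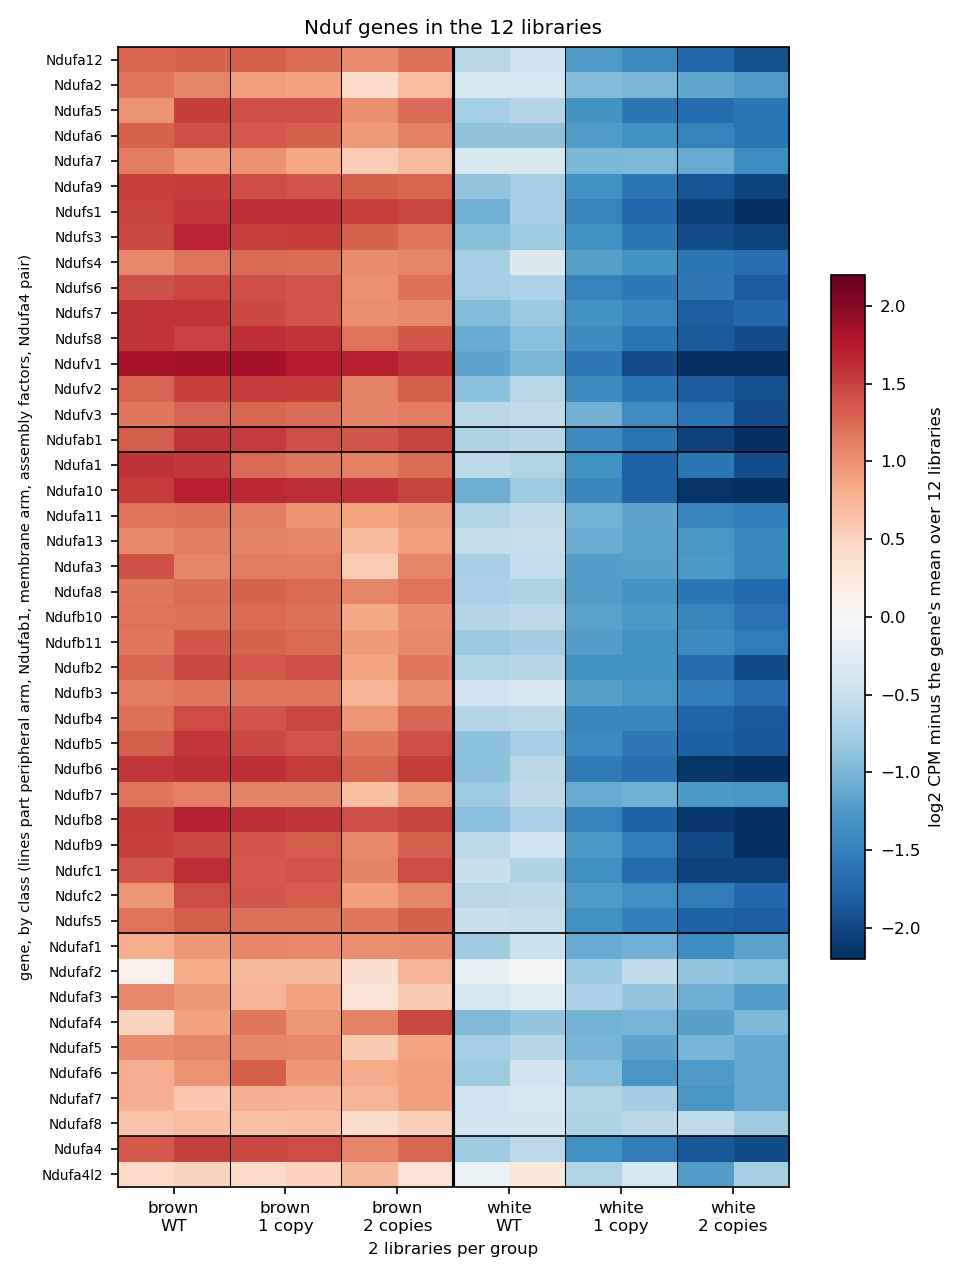
Log2 CPM of 45 of the 46 genes in the 12 libraries, each gene centred on its own mean over all libraries (colour, clipped at 2.2 on either side); columns are libraries grouped by tissue and genotype and rows are ordered by class. The 6 brown columns are red across the subunit block, and in the white columns most subunits are bluer with each copy, as are 4 of the 8 assembly factors in paler colours.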

How the data were processed

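Polyadenylated RNA was sequenced in 12 libraries, 2 for each of 3 genotypes in each of 2 tissues. The deposited table holds one raw read count per gene and library. The authors aligned to build mm10 with STAR and counted with featureCounts of the Subread package, per the submitters' processing notes; versions, annotation and strand setting are not given in the sources used here. Libraries came from a stranded mRNA kit, per the labels. Groups follow the genotype and tissue in the labels, and replicate numbers are the order of the samples.

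Counts were analysed in R 4.3.3 with edgeR 4.0.16 (limma 3.58.1): filterByExpr, TMM scaling and the robust quasi-likelihood test, two-sided, with Benjamini-Hochberg adjustment over all genes tested and a threshold of 0.05. Genotypes were compared within a tissue (6 libraries, 13414 genes in brown and 15287 in white adipose, 3 residual degrees of freedom), and depots and interactions in 1 fit of 12 libraries (15559 genes, 6 residual degrees of freedom). A fold change is on the log2 scale, and its SE is its size over the root of F. Printed CPM use the TMM factors of all 12 libraries; within a tissue the scaling multiplies them by 0.825 to 0.839 (brown) or 1.20 to 1.21 (white). Levels between genes are CPM per kb of the shortest principal transcript in GENCODE. Intervals of counting error were not needed, since no member had fewer than 86 counts in a library. The scripts were tested on simulated counts.

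Alternatives were median-of-ratios scaling, library totals alone, DESeq2 1.42.0, no filter, a mean CPM of at least 1, a test against a fold of 1.5 (glmTreat), all 12 libraries or only the compared groups in the fit, and leaving out each library (the lone library of a group is then assumed to vary like the others). Named with values were the 6 widest and 6 narrowest depot differences, all assembly factors, the core subunits, paralogs, and in each other comparison up to 12 members by adjusted p among those that passed, or the 3 smallest p where fewer than 3 passed. The members and all gene lists (other complex I assembly genes, complexes II to IV, ATP synthase, other mitochondrial genes and cell type markers) were chosen with earlier results of these data known; the YY1 and GABPA motifs were added later still. Macrophage markers had a median of -0.95, epithelial markers one of -0.31, brown adipocyte markers one of -3.03 and 3 white adipocyte markers one of -1.62 between 2 copies and wild type in white adipose. The values of 1 member are not reported here, though it is kept in every count and sum. Drawings used Python 3.11.15 with matplotlib 3.10.9.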

Additional observations from a re-analysis of the deposited data

Results flagged for a closer look

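Results are set out here because the change with the transgene differed between brown and white adipose by the test of that difference (edgeR's quasi-likelihood test of the interaction, with Benjamini-Hochberg adjustment over 15559 genes). With 2 copies, 32 of 36 subunits and 3 of 8 assembly factors passed with a higher change in brown, against 20.6% of all genes tested. The difference of log2 changes, brown minus white, was Ndufs5 (1.27), Ndufab1 (1.48), Ndufb6 (1.26), Ndufa12 (1.15), Ndufa8 (0.89) and Ndufb9 (1.29) among the 6 genes with the smallest adjusted p. It was Ndufb8 (1.24), Ndufa9 (0.95), Ndufs1 (1.21), Ndufb3 (0.92), Ndufaf7 (0.94) and Ndufa10 (1.22) among the next 6. With 1 copy, 29 of 36 subunits and 1 of 8 assembly factors passed, against 13.8% of all genes tested. The values were Ndufs5 (0.86), Ndufb3 (0.85), Ndufb4 (0.92), Ndufa8 (0.65), Ndufs6 (0.78) and Ndufa12 (0.78) for the first 6 genes by adjusted p and Ndufb6 (0.84), Ndufs4 (0.86), Ndufab1 (0.86), Ndufb10 (0.63), Ndufv2 (0.86) and Ndufa4 (0.75) for the next 6.

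Several marker lists moved with these differences. Lymphocyte markers were 1517 to 1742 CPM in the 4 transgenic white libraries against 7.94 and 11.5 CPM in wild type white libraries and at most 11.6 CPM in brown ones. The 5 adipocyte markers fell in white adipose and summed to 13313 to 15266 CPM over the 6 brown libraries. The same interaction test called 3369 (2 copies) and 2926 (1 copy) of all 15559 genes lower. Skeletal muscle markers were lower by it in 12 of 19 genes with 2 copies and in 17 of 19 with 1 copy. They summed to 19.8 to 36.7 CPM in the 4 transgenic brown libraries, against 4090.2 and 1644 CPM in wild type brown libraries. Brown adipocyte markers were higher by that test in 6 of 8 genes with 2 copies, against 20.6% of all genes tested. They summed to 14619 and 19687 CPM in 2-copy brown libraries against 14259 and 12791 CPM in wild type brown, and to 32.1 and 24.6 CPM in 2-copy white libraries against 190.2 and 527 CPM in wild type white. The part of these markers in the differences was not tested.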

How the results depend on the processing

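The subunit median of 1 copy over wild type in brown adipose, -0.02, changed sign by library totals alone (0.04) and without wild type library 2 (0.03); no other subunit median and no called member changed sign under the alternatives tried. For the single members named, 3774 of the recomputed values stayed on their side of the threshold, 87 lost it and 39 gained it, and the cause was not tested.

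Scaling by library totals alone shifted the median of all genes by 0.22 (2 copies) and 0.12 (1 copy) in white adipose against wild type, and by -0.44, -0.51 and -0.66 between depots in wild type, 1-copy and 2-copy mice. It shifted that of 2 copies over 1 copy in white adipose by 0.10 and that of the 2-copy interaction by -0.22. Median-of-ratios scaling shifted the 1-copy depot median of all genes by 0.12 and the 2-copy and 1-copy interactions by 0.12 and 0.14. By library totals, the subunit median was -0.90 (2 copies) and -0.55 (1 copy) in white adipose, 1.59, 2.24 and 2.25 between the depots, and 0.65 for the 2-copy interaction, still on the same side of the median of all genes; with 1 copy in white adipose 0 assembly factors passed. The counts of all genes called higher and lower also shifted: they were 5063 and 2687 against 4349 and 3602 in the scaling reported for 1 copy in white adipose. Between the depots they were 2300 and 7968 against 4505 and 5002 in wild type, 2705 and 9032 against 4582 and 6320 with 1 copy and 2892 and 9506 against 4992 and 6581 with 2 copies. They were 2256 and 4418 against 3199 and 3369 in the 2-copy interaction. In brown adipose they were 272 and 280 against 204 and 342 for 1 copy over wild type and 107 and 102 against 167 and 95 for 2 copies over 1 copy. Median-of-ratios scaling and DESeq2 gave a 1-copy depot median of 2.86 and 6 assembly factors in the 1-copy interaction. Of all 15559 genes, they called 3068 and 3186 higher in that interaction, against 2150 in the scaling reported. The 2 groups alone gave a 1-copy depot median of 2.87.

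The test against a fold of 1.5 left 0 subunits for 2 copies in brown adipose, 2 assembly factors for 2 copies in white adipose, 5 subunits and 0 assembly factors for 1 copy in white adipose, 16 subunits and 1 assembly factor in the 2-copy interaction, and 0 and 0 in the 1-copy interaction. That test called 26 of 13414 genes lower in the brown comparison. In white adipose it called 2109 (2 copies) and 567 (1 copy) of 15287 genes lower. In the 2-copy and 1-copy interactions it called 1528 and 351 of 15559 genes higher. For 2 copies over wild type in brown adipose the count of subunits was 2 with no filter or with all 12 libraries, 4 with DESeq2 (and 1 assembly factor) and 0 with the 2 groups alone. Of all genes, 203 of 17523, 111 of 15559, 362 of 13414 and 10 of 13414 were called lower, in that order. For 1 copy over wild type in brown adipose DESeq2 gave 1 subunit, with 7.78% of all genes. For 2 copies over 1 copy in brown adipose the count of subunits was 1 with DESeq2, with all 12 libraries and with the 2 groups alone. All genes called lower there were 418 of 13414, 358 of 15559 and 326 of 13381. In white adipose the count was 3 with no filter, 19 with DESeq2, 15 with all 12 libraries and 5 with the 2 groups alone, with 1 assembly factor by DESeq2 and by all 12 libraries. All genes called lower there were 406 of 18920, 1025 of 15287, 750 of 15559 and 625 of 15287.

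Leaving out 1 library gave 0 to 1 subunits for 2 copies over wild type and 0 to 1 for 2 copies over 1 copy in brown adipose, and 0 to 2 for 2 copies over 1 copy in white adipose. It gave 0 to 3 assembly factors and a subunit median of -0.80 to -0.58 for 1 copy in white adipose, 17 to 31 subunits, 1 to 3 assembly factors and a median of 0.58 to 0.80 in the 1-copy interaction, and depot medians of 1.98 to 2.16 in wild type and 2.66 to 2.87 in 1-copy mice. The number of all genes called also rose and fell across the fits that left out a library. Whether the member counts moved apart from that number was not tested. No paired analysis was possible because the labels number each library differently and do not say which depots share a mouse.

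With 2 libraries a group an exact permutation test cannot go below p = 0.333, so calls rest on the spread shared across genes and groups. Every member had at least 86 counts in each library.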

Other observations

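Within the ATP synthase list, Atp5g1 and Atp5g3, which code for the membrane ring subunit, went against the other 8 genes between the wild type depots. Atp5g1 changed by -1.53 (adjusted p = 0.00418) and Atp5g3 by -0.56 (adjusted p = 0.000302), brown over white on the log2 scale, while the other 8 were higher in brown. In white adipose Atp5g3 fell with 2 copies over wild type, at -0.90 (adjusted p = 0.000375), and Atp5g1 did not pass, at -0.10 (adjusted p = 0.507). Both are named after their values were seen.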
